A study of Drosophila melanogaster with 21 samples.

Results

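In Drosophila melanogaster, transcripts of the lower reproductive tract of mated females were compared at 24 h and immediately (0 h) after mating. The comparison holds 3 arrays at 24 h and 6 arrays at 0 h, chosen by their time label, out of 21 single-colour oligonucleotide arrays in the series. Females of both groups were mated, 3 days old and kept near 23 C on a day and night cycle. The tissue was the upper uterus with the sperm-storage organs and accessory glands, pooled from 12 to 40 females for each array. The sources used here do not give the strain or the males. The other 12 arrays were from unmated females (5 arrays) and from females at 3 h (4 arrays) and 6 h (3 arrays).

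During mating the female tract receives sperm and seminal fluid proteins. Sperm are then held in the seminal receptacle and the spermathecae, whose gland cells secrete proteases and other products into the lumen. Ovulated eggs pass through the uterus, are fertilised there and are laid, so that the contents of the tract as well as its own cells can contribute RNA. The comparison asks which transcripts of this tissue differ between the tract just after copulation and the tract 1 day later.

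At 24 h, 2 genes were lower than at 0 h beyond the spread between arrays, both of sugar metabolism: tobi, an alpha-glucosidase family gene, and Sodh1, a sorbitol dehydrogenase. No probe set was higher at an adjusted p under 0.05. Of 13966 probe sets tested with limma, 0 (0% of those tested) were called higher and 2 (0.0143%) lower. At an unadjusted p under 0.05, 353 probe sets (2.53%) were higher and 410 (2.94%) lower. Those shares are close to what a 2-sided test at this threshold calls where nothing differs. All 3 arrays at 24 h lay above all 6 at 0 h for 210 probe sets (1.5%) and below them for 204 (1.46%). The median log2 difference over all probe sets was -0.01, with 6861 above 0 and 7105 below 0. All log2 differences below are 24 h minus 0 h, all signals are linear intensity, and all adjusted p-values come from limma.

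Arrays of both groups stood apart in some transcripts. In 24 h replicate 2, 22 probe sets were more than 4-fold above their value on each of the other 20 arrays, and in 0 h replicate 6 this held for 16. The other arrays at 24 h and 0 h had between 0 and 7 such probe sets, and in the rest of the series unmated replicate 5 had 15. The transcripts of 24 h replicate 2 included genes first transcribed in the young embryo, and those of 0 h replicate 6 included eggshell genes. Cp36, an eggshell (chorion) protein gene of follicle cells, had 153, 190 and 240 in 24 h replicates 1, 2 and 3. At 0 h it lay between 137 and 270 in replicates 1 to 5 and at 16070 in replicate 6.

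Ama, a cell adhesion gene, had 6.6, 392 and 16.6 at 24 h and between 1.9 and 7.6 at 0 h. Over 37 measured early embryo genes, a list written after values of these arrays had been seen, the summed signal was 1466, 4817 and 2258 at 24 h and between 1118 and 1637 at 0 h. The 10 follicle cell markers summed to between 1070 and 1434 at 24 h, against 753 to 1226 in 0 h replicates 1 to 5 and 32518 in replicate 6. The 7 germline markers summed to 334, 218 and 510 at 24 h, against 149 to 200 in 0 h replicates 1 to 5 and 620 in replicate 6. The bar chart of summed marker signals shows these arrays.

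**Figure D1:**
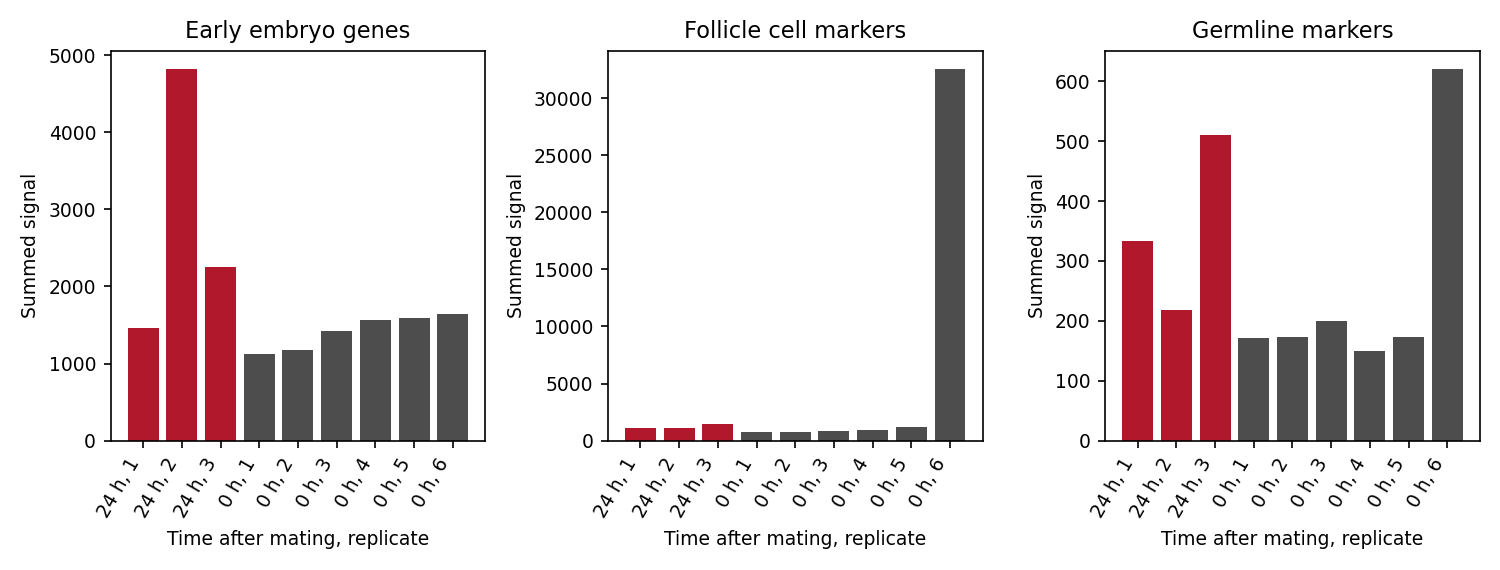
Summed signal (linear intensity) of 37 early embryo genes, 10 follicle cell markers and 7 germline markers on each array, with the 3 arrays at 24 h (red) left of the 6 arrays at 0 h (grey). The early embryo sum is highest in 24 h replicate 2 (4817) and the follicle cell and germline sums are highest in 0 h replicate 6 (32518 and 620).

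The tissue label was checked with 6 measured markers of the tract and its sperm-storage organs, whose summed signal was 6376, 5941 and 7218 at 24 h and 9162 to 13108 at 0 h, without overlap. Most of that sum was Send1, a serine protease gene of the spermathecae that was bright on every array of both groups. The mean log2 level of the 6 markers overlapped, at 7.57, 6.84 and 6.29 at 24 h and 6.90 to 7.50 at 0 h. Of their log2 differences 3 were above 0 and 3 below 0. The markers Gld, Hr39 and lz lay between 12.4 and 43.7 at 24 h and between 8.9 and 62.2 at 0 h, near or below the array medians. The transcription factor gene dsx had 559, 348 and 84.2 at 24 h and 118 to 368 at 0 h. Yolk protein and other fat body markers were also bright, at a sum of 62534 to 79048 at 24 h and 57706 to 113370 at 0 h over 6 genes. Of the markers of other cells, these sums overlapped between 24 h and 0 h: muscle (3 genes, 11901 to 16092 and 11934 to 19359), hemocytes (6 genes, 1080 to 2666 and 1061 to 2007), neurons (4 genes, 51.9 to 60.7 and 14.2 to 62.1), testis and sperm (5 genes, 115 to 289 and 172 to 291), midgut (4 genes, 43.8 to 83.2 and 46 to 124) and male accessory gland and ejaculatory duct (6 genes, 60.5 to 193 and 31.8 to 160). The 4 neuron markers, all dim, had a median log2 difference of 1.24 with 4 above 0. Their mean log2 level was 3.43 to 3.79 at 24 h and 1.71 to 3.19 at 0 h, without overlap. A wider list of 24 neuronal genes did not share this, with 10 above 0, 14 below and a median of -0.24. Its mean log2 level overlapped, at 4.10 to 4.43 at 24 h and 3.85 to 4.71 at 0 h. RNA integrity, read as the log2 signal of 3' over 5' probe sets of control genes, was 5.28, 3.72 and 2.33 at 24 h and between 1.89 and 5.58 at 0 h. The labels' array numbers form 6 groups of neighbouring numbers, called runs here. Run 4 is the single run that held both groups, with 24 h replicate 2 and 0 h replicates 1 and 2, and differences within it are given as values without a test. In whole tissue, fewer cells of a type and less RNA per cell cannot be told apart.

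Transcripts of tobi, "target of brain insulin", a gene of the alpha-glucosidase family known to respond to insulin-like and adipokinetic hormone signals, had signals of 60.6, 30.3 and 49.1 at 24 h. At 0 h the lowest, median and highest of 6 arrays were 209, 279 and 389. No array at 24 h came within 3-fold of the lowest array at 0 h. The mean log2 signal was 5.49 ± 0.51 (SD, n = 3) at 24 h and 8.11 ± 0.31 (SD, n = 6) at 0 h. The log2 difference was -2.62 (SE 0.36, adjusted p = 0.00809), and it was -3.12 within run 4. The 24 h signals also lay below those of the other 18 arrays, where the lowest was 90.5, at 6 h.

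Sodh1, which oxidises sorbitol to fructose, had signals of 112, 86.8 and 256 at 24 h. At 0 h the lowest, median and highest were 830.1, 1501 and 4038. The groups did not overlap, and 24 h replicate 3 was the highest of its group. The mean log2 signal was 7.08 ± 0.82 (SD, n = 3) at 24 h and 10.76 ± 0.88 (SD, n = 6) at 0 h, a log2 difference of -3.68 (SE 0.58, adjusted p = 0.0273) and -4.04 within run 4. The lowest of the other 18 arrays, an unmated one, had 292. The paralogue Sodh2, which was looked up after the call of Sodh1 and could share part of its hybridisation, had 132, 118 and 245 at 24 h and between 164 and 269 at 0 h (log2 difference -0.47, SE 0.36, adjusted p = 0.958).

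The plot of 6 genes over all times shows both genes. For tobi the medians were 170 in unmated females, 279 at 0 h, 178 at 3 h and 136 at 6 h, against signals of 30.3 to 60.6 at 24 h. For Sodh1 the medians were 764 in unmated females, 1501 at 0 h, 1136 at 3 h and 487 at 6 h, against 86.8 to 256 at 24 h. For both genes the group with the highest median was 0 h, and the ranges of 0 h and unmated females overlapped (95.8 to 351 for tobi and 292 to 1153 for Sodh1 in unmated females).

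Both calls depended on arrays and on the fit. With run as a fixed block the log2 differences were -2.88 for tobi (adjusted p = 0.0835) and -3.39 for Sodh1 (adjusted p = 0.153). Without 24 h replicate 2 neither passed (log2 difference -2.34, adjusted p = 0.253 for tobi; -3.36, adjusted p = 0.403 for Sodh1). Sodh1 also missed the threshold without 24 h replicate 1 (adjusted p = 0.0711) and without 0 h replicate 2, 3 or 4 (adjusted p = 0.0730, 0.0872 and 0.0708), and in a fit of the 9 compared arrays alone both missed it (adjusted p = 0.0755 for tobi and 0.153 for Sodh1).

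**Figure D2:**
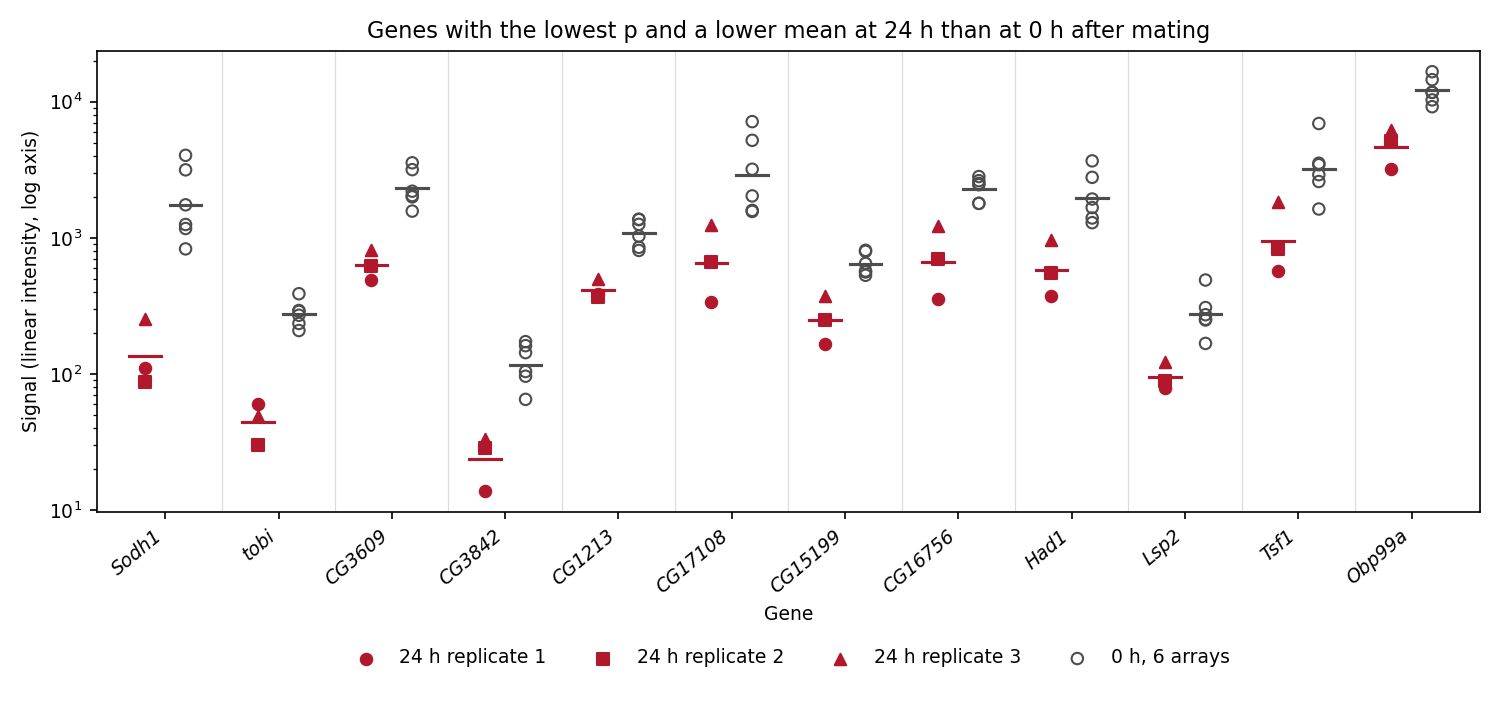
Signal (linear intensity, log axis) of the 12 genes named on the lower side, with each of the 3 arrays at 24 h as a red symbol left of the 6 arrays at 0 h as open circles, and horizontal bars at geometric means. Only tobi and Sodh1 passed the threshold, and Tsf1 is the gene whose groups overlap (24 h replicate 3 at 1835 above the lowest 0 h array at 1629).

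A further 10 genes with the smallest p and a lower mean at 24 h did not pass, so that their values describe these arrays alone. Since they were picked by p, their not overlapping is no further support. Those with a known role were Tsf1, an iron-binding transferrin of the haemolymph, Lsp2, a storage protein of the fat body, Obp99a, an odorant-binding protein, and Had1, a hydroxyacid dehydrogenase. CG1213 is a member of the sugar transporter family, and CG3609, CG3842, CG17108, CG15199 and CG16756 are given by their identifiers.

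Among genes with 1 symbol and a mean log2 signal of at least 6 in the higher group, CG3609 had the smallest p after tobi and Sodh1, with signals of 489, 623 and 810.3 at 24 h. At 0 h its lowest, median and highest signals were 1572, 2124 and 3559. The log2 difference was -1.89 (SE 0.36, adjusted p = 0.0865) and -1.75 within run 4, and every array at 24 h lay below the other 18 arrays. The same was true of CG1213, with 390, 370 and 499.9 at 24 h against a lowest of 809, a median of 1144 and a highest of 1372 at 0 h (log2 difference -1.39, SE 0.31, adjusted p = 0.240). With tobi and Sodh1 these were the 4 such probe sets with a mean log2 signal of at least 6. Over all levels, 10 probe sets (0.0716%) lay below the other 18 arrays in all 3 arrays at 24 h, and 7 (0.0501%) above them.

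Lsp2 had 79.2, 89.5 and 123 at 24 h, against 168, 263 and 490.4 as lowest, median and highest at 0 h (log2 difference -1.53, SE 0.38, adjusted p = 0.361). Yp1, a yolk protein gene also transcribed in the fat body, had 24710, 20710 and 28160 at 24 h and 19220, 32720 and 37740 as lowest, median and highest at 0 h, so that its groups overlapped. Obp99a had 3178, 5186 and 6193 at 24 h, against 9185, 11707 and 16602 at 0 h (log2 difference -1.37, SE 0.36, adjusted p = 0.429). The share of fat body cells in a pool was not measured, and its part in these values was not tested. The remaining 6 of the 10 had log2 differences between -2.31 (CG3842, adjusted p = 0.178) and -1.37 (CG15199, adjusted p = 0.361). In all 6 the 24 h signal was lowest in replicate 1 and highest in replicate 3, the arrays with the highest and the lowest ratio of 3' to 5' signal. CG3609, Lsp2 and Obp99a had the same order, and CG1213 did not. With the ratio of 3' to 5' signal as a covariate the log2 differences of the 6 lay between -2.35 (CG3842) and -1.35 (CG15199), and none passed.

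On the higher side 12 genes were named by the same rule, none past the threshold. Some were high mainly in 24 h replicates 2 and 3, and others were not. Tom, a Bearded family inhibitor of Notch signalling, had 35, 805 and 268 at 24 h, against 7.8, 20.0 and 25.3 as lowest, median and highest at 0 h (log2 difference 3.43, SE 0.68, adjusted p = 0.125). CG13427 had 16.4, 1231 and 807 at 24 h and 7.2, 25.8 and 71.6 at 0 h (log2 difference 3.46, SE 0.99, adjusted p = 0.563). Nrt, the adhesion protein Neurotactin, had 117, 849 and 149.8 at 24 h and 50.2, 83.3 and 102 at 0 h, and its other probe set had a log2 difference of 0.90 beside 1.65 for the named one.

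Z600, a mitotic inhibitor of the early embryo, had 3.8, 82.3 and 30.5 at 24 h and between 2.8 and 9.9 at 0 h. Without 24 h replicate 1, 9 probe sets were called higher, in place of 0, at a threshold of 0.05. Those with 1 gene symbol were Tom (log2 difference 4.67, adjusted p = 0.000484), Septin5, CG13427, CG4440, CG8960, Z600 and link. CG4440 had 9.5, 1005 and 1090.3 at 24 h, against 3.7 to 69.9 on the other 18 arrays. Of the 37 early embryo genes 29 had a log2 difference above 0. The median of the 37 was 0.46, which was 0.92 without 24 h replicate 1 and 0.24 without 24 h replicate 2. That list includes Tom, Nrt and Z600 and was written after values had been seen, so it is no further support. The part of embryos held in the uterus in these values was not tested.

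**Figure D3:**
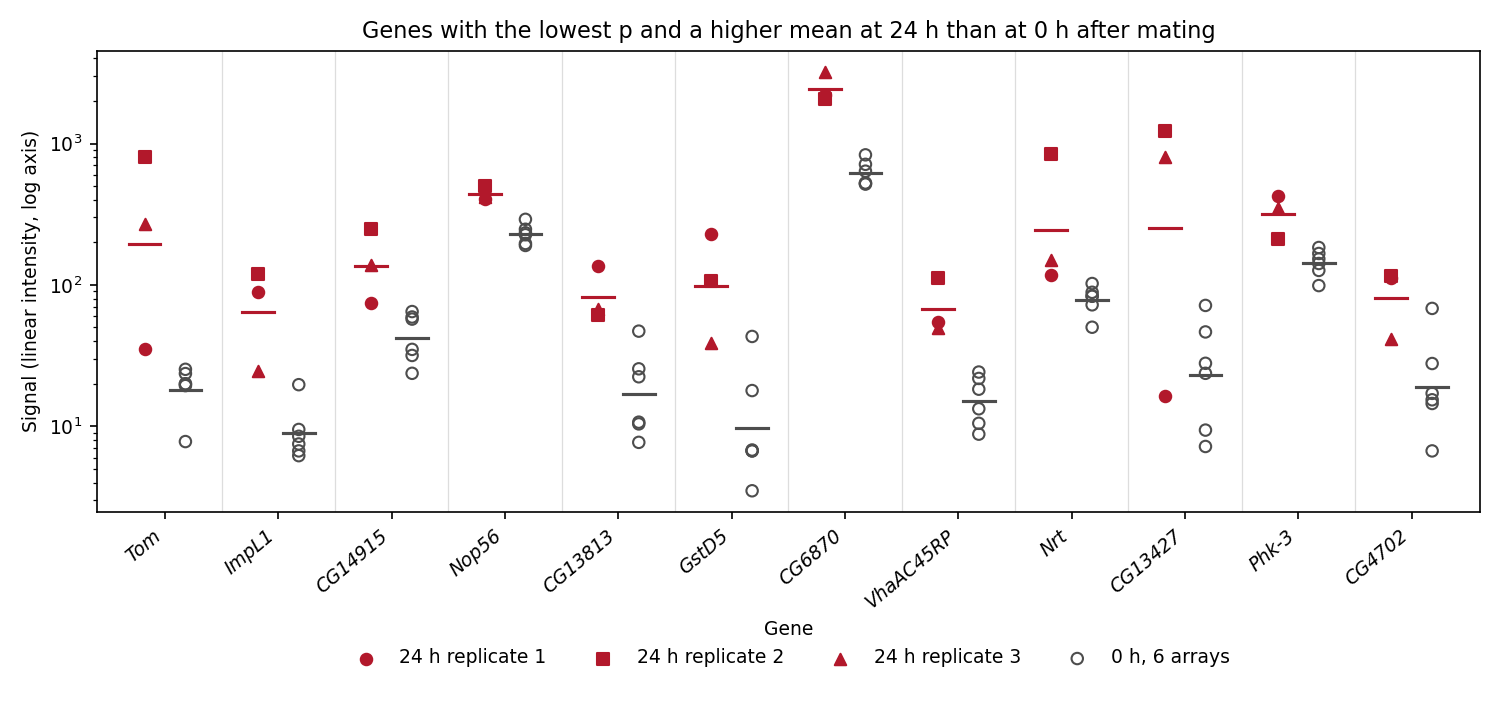
Signal (linear intensity, log axis) of the 12 genes named on the higher side, drawn with 24 h (red symbols by replicate) left of 0 h (open circles) and bars at geometric means. Tom, Nrt and CG13427 spread widely over the 3 arrays at 24 h, while Nop56 (403 to 502 at 24 h) and CG6870 (2078 to 3220) do not, and no gene passed the threshold.

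Nop56, a core protein of the particles that methylate ribosomal RNA, had 403, 502 and 420 at 24 h, against 190.1, 230 and 291 as lowest, median and highest at 0 h. Its groups did not overlap (log2 difference 0.94, SE 0.23, adjusted p = 0.361). Its median was 229 in unmated females, 350.2 at 3 h and 523 at 6 h, so that unmated females and 0 h had the lowest medians. CG6870 had 2191, 2078 and 3220 at 24 h and 516, 582 and 831 at 0 h (log2 difference 2.00, SE 0.54, adjusted p = 0.479), and its 24 h signals lay above those of the other 18 arrays. Phk-3, a pherokine of the chemosensory protein family, had 428, 213 and 352 at 24 h and 98.9, 147 and 184 at 0 h (log2 difference 1.16, SE 0.33, adjusted p = 0.579).

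CG13813 had 136, 61.3 and 67.9 at 24 h against 7.7, 16.6 and 47.1 at 0 h, and it too lay above the other 18 arrays (log2 difference 2.29, SE 0.58, adjusted p = 0.361). VhaAC45RP, related to an accessory subunit of the vacuolar proton pump, had 54.7, 112 and 49.7 at 24 h against 8.8, 15.8 and 24.2 at 0 h (log2 difference 2.16, adjusted p = 0.479). CG14915 had 74.4, 250.3 and 137 at 24 h against 23.7, 46.1 and 64.8 at 0 h (log2 difference 1.69, adjusted p = 0.361). ImpL1, an ecdysone-inducible gene, GstD5, a glutathione S-transferase, and CG4702 had log2 differences of 2.85, 3.34 and 2.08 (adjusted p = 0.240, 0.370 and 0.579). Signals of ImpL1, GstD5 and CG4702 at 0 h had medians of 8.0, 6.8 and 16.2. Like those of CG13813 and VhaAC45RP, and of Tom (20.0) and CG13427 (25.8), these lay below the median signal of any array (35.6 to 57.7). The size of all these differences is therefore uncertain. With log2 of signal plus 16 they were 1.72 for ImpL1, 2.08 for GstD5, 1.41 for CG4702, 1.53 for CG13813 and 1.41 for VhaAC45RP. For Tom and CG13427 they were 2.71 and 2.93.

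Genes that led earlier comparisons of this series, most of them with high signals at 3 h or 6 h, overlapped at 24 h with their 0 h range, except Send1. Send2, a protease of the spermathecae, had 299, 75.2 and 50.9 at 24 h, against 172, 397 and 1008 as lowest, median and highest at 0 h (log2 difference -1.90, SE 0.70, adjusted p = 0.861). Its median was 107 in unmated females, 9819 at 3 h and 7168 at 6 h. One array at 24 h lay inside the 0 h range and the other 2 below it, and the lowest array at 6 h had 6797. Send1 had 5405, 5432 and 7023 at 24 h and 7966, 10397 and 12277 at 0 h. Its groups did not overlap (log2 difference -0.78, SE 0.35, adjusted p = 0.895), and its median was 5871 at 6 h.

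For jhamt, the methyltransferase of juvenile hormone synthesis, the signals were 154, 108 and 218 at 24 h, against 81.7, 137 and 213 at 0 h. Its median was 39.2 in unmated females, 993 at 3 h and 735 at 6 h. The log2 difference was 0.20 (SE 0.57, adjusted p = 0.988), and the groups overlapped.

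PGRP-SC2, an amidase that degrades peptidoglycan, had 142, 133 and 301 at 24 h, against 177, 239.8 and 294 at 0 h, with medians of 116 in unmated females, 981 at 3 h and 2301 at 6 h. CAH8, of the carbonic anhydrase family, had 149, 279.6 and 172 at 24 h, against 266, 462 and 637 at 0 h, with medians of 228 in unmated females, 3113 at 3 h and 351 at 6 h. The log2 differences were -0.36 (adjusted p = 0.976) for PGRP-SC2 and -1.14 (adjusted p = 0.861) for CAH8. CG42284, which had a median of 6.8 at 3 h, had 460.1, 322 and 145 at 24 h and a median of 429 at 0 h (log2 difference -0.49, adjusted p = 0.976).

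**Figure D4:**
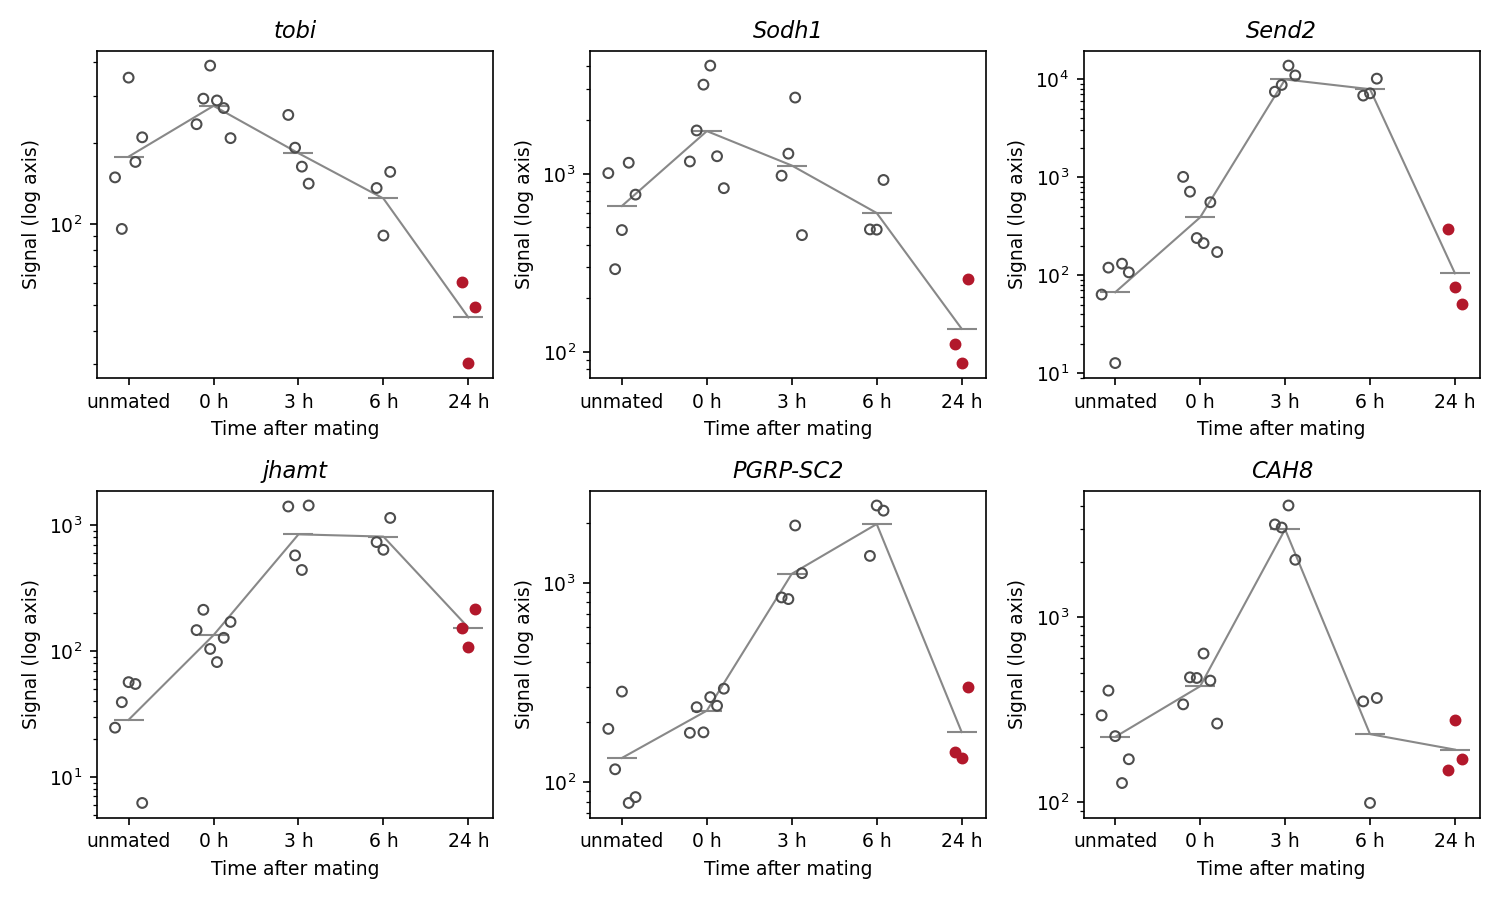
Signal (linear intensity, log axis) of 6 genes on all 21 arrays in order of time, with unmated females first, each point an array and 24 h in red. A horizontal tick marks the geometric mean of a group, and the line joins them. The tobi and Sodh1 signals are lowest at 24 h, while Send2, jhamt, PGRP-SC2 and CAH8, highest at 3 h or 6 h, lie at 24 h within or near the range of their unmated and 0 h signals.

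The other genes of that set were dim or spread widely. CG17134 had 131, 72.7 and 6.2 at 24 h and a median of 12.8 at 0 h (log2 difference 1.91, adjusted p = 0.916), against a median of 566 at 3 h. CG18088 had 26.9, 5.4 and 3.4 at 24 h and 1.8 to 5.0 at 0 h (log2 difference 1.33, adjusted p = 0.895). CG11426 and Gld, the glucose dehydrogenase of the sperm-storage organs, had log2 differences of -0.14 and 0.14, with overlapping groups.

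Gene lists of pathways, cell types and complexes were described by counts and medians beside the values for all genes. The 35 lists held 987 measured genes, of which 0 passed the threshold in either direction, the smallest adjusted p being 0.240. At 24 h, 12 of these genes lay above all arrays at 0 h and 18 below, where 187 (1.72%) and 153 (1.41%) of all 10844 genes did. The median log2 difference of all genes was 0.01. Leaving out 1 array at 24 h turned the sign of the median in 20 of the 35 lists (9 without replicate 1, 8 without replicate 2 and 10 without replicate 3). A range given beside a list's number of genes is that of its median over these 3 fits. The plot of list medians shows the whole set.

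The list farthest above the median of all genes was DNA replication and the cell cycle, with a median of 0.82 over 29 measured genes, 27 above 0, 2 below 0 and 0 past the threshold. Its genes ran from -0.61 (twe) to 2.41 (CycB3, a mitotic cyclin). CycB3 had 50.2, 388 and 99.7 at 24 h, against 5.9, 18.1 and 205 as lowest, median and highest at 0 h, so that its groups overlapped (adjusted p = 0.861). The licensing factor dup had 32.4, 72.7 and 36.7 at 24 h and 7.9, 13.8 and 32.3 at 0 h, and the clamp loader subunit RfC3 had 79.2, 82.7 and 70.4 at 24 h and 10.4, 47.7 and 55.7 at 0 h. Those 2 of the 29 genes (6.9%) did not overlap (adjusted p = 0.865 and 0.895), where 187 of all 10844 genes (1.72%) lay above all arrays at 0 h. They were picked after their values were seen, and for dup the gap was from 32.3 to 32.4. The gene of smallest p was Bub3 (log2 difference 0.96, adjusted p = 0.847).

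The mean log2 level of the replication list was 5.88 ± 0.35 (SD, n = 3) at 24 h and 5.04 ± 0.39 (SD, n = 6) at 0 h, and 6.57 ± 0.73 (SD, n = 3) at 6 h. By array it was 5.48, 6.16 and 5.99 at 24 h, and at 0 h it reached 5.81 in replicate 6, the array with eggshell and germline transcripts. Its median log2 difference was 0.95, 0.70 and 0.48 without 24 h replicate 1, 2 and 3, 1.01 without 0 h replicate 6 and 1.07 within run 4. Of the 29 genes 17 were dim, with a mean log2 signal over all 21 arrays below the log2 of the mean array median. Germline and oocyte genes had a median of 0.21 (35 genes, 20 above 0, range 0.14 to 0.55), led by dhd, the oocyte thioredoxin deadhead, with 232, 65.4 and 1577 at 24 h and 1.4, 4.8 and 1606 as lowest, median and highest at 0 h. The part of germline or embryo RNA in the replication values was not tested.

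Glycolytic enzymes were the list farthest below the median of all genes, with a median of -0.63 over 12 measured genes, 11 below 0, 1 above 0 and 0 past the threshold. Pgi, glucose-6-phosphate isomerase, had 1217, 979 and 1110.4 at 24 h, against 1631, 1728 and 2153 at 0 h, with no overlap (log2 difference -0.72, SE 0.25, adjusted p = 0.845). Ald1, the aldolase, had 1884, 2477 and 3130 at 24 h and 2629, 7353 and 9741 at 0 h (log2 difference -1.26, adjusted p = 0.893). The member above 0 was Tret1-1, a trehalose transporter and not an enzyme, with 1928, 1886 and 2644 at 24 h and 1259, 1451 and 1687 at 0 h (log2 difference 0.55, adjusted p = 0.960).

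The mean log2 level of the glycolytic list was 10.35, 10.39 and 10.28 on the 3 arrays at 24 h and between 10.67 and 11.10 at 0 h. It was 10.71 ± 0.17 (SD, n = 5) in unmated females, 10.71 ± 0.16 (SD, n = 4) at 3 h and 10.56 ± 0.06 (SD, n = 3) at 6 h. The list's median log2 difference was -0.50 after quantile normalization, -0.48 within run 4 and between -0.70 and -0.53 when any 1 array at 24 h was left out.

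**Figure D5:**
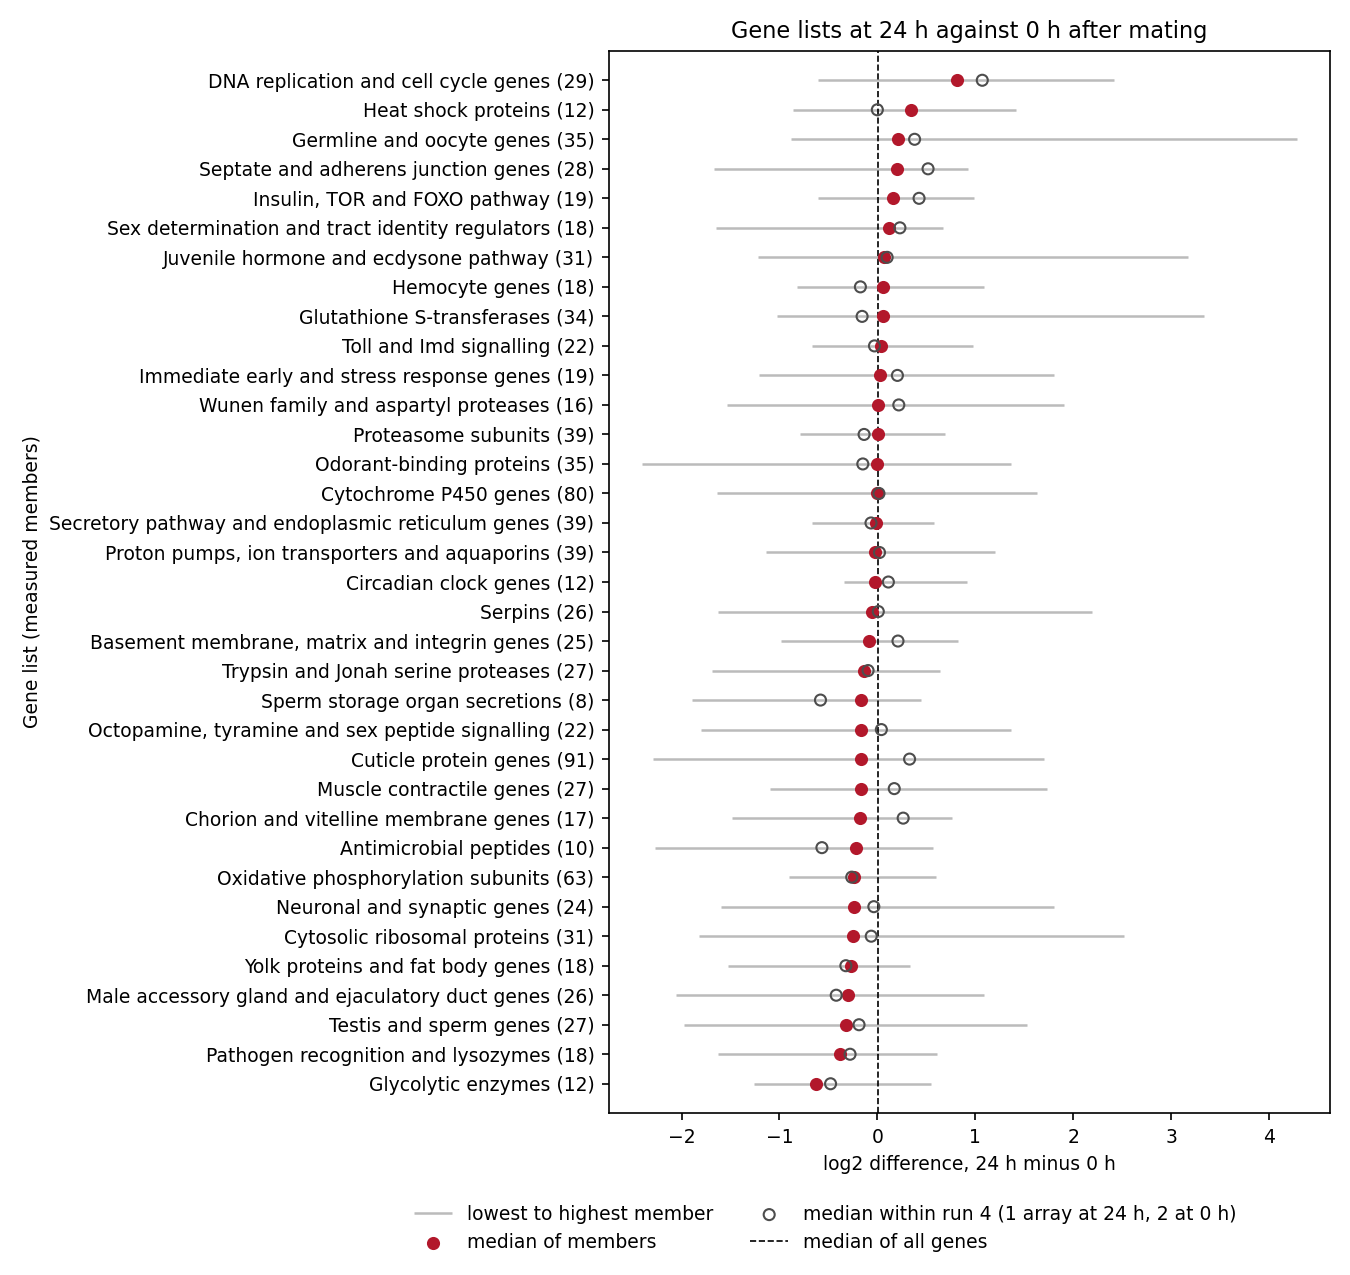
Median log2 difference, 24 h minus 0 h, of 35 gene lists (red points) with the lowest and highest member (grey lines), the median within run 4 (open circles, 1 array at 24 h and 2 at 0 h, no test) and the median of all genes (dashed line, 0.01). DNA replication and cell cycle genes lie highest (0.82) and glycolytic enzymes lowest (-0.63), and 0 members passed the threshold.

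Oxidative phosphorylation subunits had a median of -0.23 over 63 genes, 51 of them below 0, which was 0.01 without 24 h replicate 1 and -0.51 without replicate 3. Cytosolic ribosomal proteins had -0.25 over 31 genes, 26 below 0, -0.01 after quantile normalization and a range of -0.49 to -0.10. Their member RpS5b, a paralogue enriched in the germline, had 155, 1275 and 3006 at 24 h and 13.1, 158 and 1315 at 0 h (log2 difference 2.52, adjusted p = 0.861). Proteasome subunits had a median of 0.01 (39 genes, range -0.15 to 0.13) and secretory pathway genes -0.01 (39 genes, range -0.04 to 0.04).

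Among immune genes, pathogen recognition proteins and lysozymes had a median of -0.38 over 18 genes, 15 below 0 (range -0.43 to -0.21, reaching -0.21 without 24 h replicate 1). PGRP-SB1, a peptidoglycan amidase, had 268, 254 and 411 at 24 h, against 664, 1026 and 1122 at 0 h (log2 difference -1.63, SE 0.43, adjusted p = 0.432). PGRP-LA, a membrane-bound relative, had 77.4, 91.5 and 102 at 24 h and 120.4, 180.3 and 217 at 0 h (log2 difference -0.93, adjusted p = 0.847). These 2 of the 18 genes (11.1%) did not overlap between groups, where 153 of all 10844 genes (1.41%) lay below all arrays at 0 h. Antimicrobial peptide genes had a median of -0.21 over 10 genes, which was 0.12 without 24 h replicate 2 and -0.55 without replicate 3. Metchnikowin (Mtk) ranged from 18.5 to 458 at 24 h and from 83.2 to 3510 at 0 h. Toll and Imd signalling had a median of 0.04 (22 genes, range -0.06 to 0.20), with 0.78 for Fadd, the adaptor of the Imd pathway (adjusted p = 0.955).

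In the hormone and nerve signalling lists, juvenile hormone and ecdysone genes had a median of 0.07 (31 genes, range -0.13 to 0.26). ImpE2, an ecdysone-inducible gene, had 98.7, 137 and 14.7 at 24 h and 2.5, 7.5 and 11.4 at 0 h, without overlap (log2 difference 3.17, SE 0.71, adjusted p = 0.240, and 1.81 with log2 of signal plus 16). Octopamine, tyramine and sex peptide signalling had a median of -0.17 (22 genes, range -0.47 to -0.06), and the octopamine receptor gene Octbeta1R had 9.1, 8.9 and 21.9 at 24 h against 25.4, 36.2 and 49.9 at 0 h (log2 difference -1.57, adjusted p = 0.755). Insulin, TOR and FOXO genes had 0.16 (19 genes, range -0.08 to 0.18) and circadian clock genes -0.03 (12 genes, range -0.23 to 0.10). Immediate early and stress response genes had 0.03 (19 genes, range -0.17 to 0.42), with hry, the repressor Hairy, at 1070.3, 637 and 248 at 24 h against 1159, 1263 and 1418 at 0 h (log2 difference -1.21, adjusted p = 0.861).

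Of the structural and cell type lists, muscle contractile genes had a median of -0.17 (27 genes), hemocyte genes 0.06 (18 genes), basement membrane genes -0.08 (25 genes) and septate and adherens junction genes 0.20 (28 genes). Without 24 h replicate 3 these medians were 0.13, 0.43, 0.29 and 0.75, and without replicate 2 that of the junction genes was -0.13. The mean log2 level by array was 6.84, 7.25 and 5.87 for junction genes, 7.06, 6.97 and 5.91 for basement membrane genes and 8.26, 8.13 and 7.08 for hemocyte genes at 24 h. At 0 h it lay between 6.18 and 6.76, 6.59 and 6.82, and 7.43 and 8.17 in the same order, so that 24 h replicate 3 was below all arrays at 0 h in these 3 lists. Neuronal genes had -0.24 (24 genes, range -0.26 to -0.20). Yolk protein and fat body genes had -0.27 (18 genes, 15 below 0, range -0.41 to -0.23, -0.08 after quantile normalization). Chorion and vitelline membrane genes had -0.18 (17 genes, range -0.59 to -0.05), which was 0.24 without 0 h replicate 6. Genes of the male accessory gland and ejaculatory duct had -0.30 (26 genes, 25 of them dim, range -0.39 to -0.25) and testis and sperm genes -0.32 (27 genes, 22 dim, range -0.53 to -0.08).

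Of the remaining lists, sperm storage organ secretions had a median of -0.16 (8 genes, range -0.42 to -0.03) and heat shock proteins 0.34 (12 genes, range 0.17 to 0.25). Sex determination regulators had 0.12 (18 genes, range -0.02 to 0.05) and the wunen family with aspartyl proteases 0.01 (16 genes, range -0.25 to 0.12). Cytochrome P450 genes had 0.00 (80 genes, range 0.01 to 0.05), glutathione S-transferases 0.06 (34 genes, range -0.05 to 0.14) and odorant-binding proteins 0.00 (35 genes, range -0.09 to 0.13). Trypsin and Jonah proteases had -0.13 (27 genes, range -0.39 to -0.01), serpins -0.06 (26 genes, range -0.10 to 0.04), cuticle proteins -0.17 (91 genes, range -0.38 to -0.01) and ion transporters with proton pumps and aquaporins -0.02 (39 genes, range -0.06 to 0.00).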

How the data were processed

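RNA of pooled lower reproductive tracts was hybridised to single-colour oligonucleotide arrays, and the 24 h (n = 3) and 0 h (n = 6) groups were taken from the labels. The deposited values are intensity of each probe set on a linear scale. The submitters' processing notes name RMA, but the values are not on a log scale and all arrays share a 2% trimmed mean, so how the authors summarised probes is not settled.

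From there log2 of the intensity was taken without a pseudocount. Of 14010 probe sets, 44 controls were left out. Of the 13966 tested, the platform annotation gave 12443 a single gene symbol, 327 several and 1196 none. Symbols of 12394 were updated with RefSeq gene identifiers (Release 6 plus ISO1 MT), used for names only, and the brightest probe set stood for each of 10844 genes.

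The tool was limma 3.58.1 under R 4.3.3, with 1 linear model of 5 group means over all 21 arrays and 2-sided moderated tests. Adjustment over all probe sets followed Benjamini and Hochberg, with a threshold of 0.05. The script was tested on simulated data. The p-values measure the spread between pools, and precision is limited by the small number of arrays. No pair of arrays within the 24 h or 0 h group shared more than 0.494% of its values. Run was inferred from array numbers and no label states it. After group means were removed, the consensus correlation of the residuals of arrays within a run was 0.311. The main model treats arrays as independent and does not take this into account.

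Named genes were chosen by rule, with 1 probe set per gene. On each side these were up to 12 genes past the threshold with a mean log2 signal of at least 6 in the higher group, filled up to 12 with the smallest p, then for each list up to 3 passing members or the member of smallest p, and 10 genes that led earlier comparisons. Other genes named were chosen after their values were seen. The comparison, the lists, the rule and the alternatives were chosen with earlier results of these data known. Alternatives were median centring, quantile normalization, the brighter probe sets alone, signal plus 16, a fit of the 9 arrays alone, run as a fixed or random block, the ratio of 3' to 5' signal as a covariate, array weights, a variance trend, a minimum of 1.5-fold, and omission of single arrays.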

Additional observations from a re-analysis of the deposited data

Results flagged for a closer look

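Among the 6 arrays at 0 h, 4 of 64 named genes had 1 array set apart from the other 5 by more than a Dixon test at 95% allows, and chance does so in about 1 of 20 groups. Pdk1, an insulin pathway kinase, had 23.2 in 0 h replicate 3, against 74.3 to 126 in the other arrays at 0 h. With 252, 260 and 41.2 at 24 h its log2 difference was 0.98 (limma adjusted p = 0.955), and its other probe set gave -0.93. CG42284 had 167.1 in 0 h replicate 6, the array with eggshell transcripts, against 381 to 613 in the others. Tom had 7.8 in 0 h replicate 1, against 19.4 to 25.3, and ImpL1 had 19.7 in 0 h replicate 3, against 6.2 to 9.5.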

How the results depend on the processing

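The count of probe sets lower at 24 h, 2 in the analysis reported, was also 2 after quantile normalization, after median centring and with the ratio of 3' to 5' signal as a covariate. It was 4 without the dimmer probe sets, 4 with log2 of signal plus 16, 4 with a variance trend and 4 with run as a random block. It was 0 in a fit of the 9 arrays alone, 0 with run as a fixed block and 0 with a 1.5-fold minimum, and 31 with array weights, which give less weight to arrays that deviate. The count higher was 15 with array weights and 0 under each of the other settings with all arrays. Leaving out 1 array gave 0 to 2 lower and 0 to 9 higher, with 0 lower without 24 h replicate 2 and 9 higher without 24 h replicate 1. Leaving out both 0 h replicate 6 and 24 h replicate 2, a setting chosen after seeing the data, gave 0 lower and 0 higher (adjusted p = 0.287 for tobi and for Sodh1). Without 24 h replicate 1 or 3, fits also short of 1 array, tobi still passed (limma adjusted p = 0.00370 and 0.0360). The cause of the changed counts was not tested. Over all settings the log2 difference lay between -2.88 and -2.25 for tobi and between -4.14 and -3.36 for Sodh1. No paired analysis was possible because replicate numbers only follow accession order. Depth cannot be read from array intensity, and genes below the array medians have uncertain differences.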

Other observations

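Some genes had all 3 arrays at 24 h above the other 18 arrays of the series while none passed the threshold against 0 h. With a mean log2 signal of at least 6 there were 6, of which CG6870 and CG13813 are described above. Dgat2, of a family of acyltransferases that make triglycerides, had 216, 272 and 278 at 24 h, against 8.4 to 211 on the other arrays (log2 difference to 0 h 2.00, limma adjusted p = 0.861). Orct, an organic cation transporter, had 931, 747 and 1054 at 24 h and 193 to 698 on the other arrays (log2 difference 0.89, adjusted p = 0.861). kraken, a serine hydrolase, had 1426, 1339 and 1342 at 24 h and 319 to 1281 on the other arrays (log2 difference 0.66, adjusted p = 0.933). CG7694 had 231, 253 and 249 at 24 h and 28 to 209 on the other arrays (log2 difference 1.52, adjusted p = 0.708). These genes were chosen for this pattern, so it is a description.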
